A study of Mus musculus with 6 samples.

Results

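The genes described here are 10 regulators of apoptosis, chosen by name with earlier results of these data known. They are the BCL2 family members Bcl2l1, Bcl2a1b, Bcl2a1d, Mcl1, Bcl2l11, Bax and Bid, and the regulators of death receptor signalling Birc2, Birc3 and Cflar. Their probes were found through the RefSeq accession that the array files give for each probe. Of the 10 genes, 9 had a named probe, with 13 probes in all, among 20283 named genes and 39429 probes on the array. Bcl2a1b had no probe under its accession and was not analysed here. The set holds both sides of the balance, since Bax, Bid and Bcl2l11 promote cell death and the other genes restrain it.

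The cells were bone-marrow-derived macrophages of C57BL/6 mice aged 6 to 8 weeks, which the labels call M2, or alternatively activated. One group was kept for 6 h in complete DMEM with WGP (whole glucan particles, yeast cell wall particles made mostly of beta-glucan), and the other for 6 h in complete DMEM without WGP, called medium below. The labels give no polarizing agent and do not say whether replicates came from separate cultures or animals, so each p-value reflects only array-to-array spread, which may be technical. Cy3-labelled RNA was read on 1-colour Agilent arrays, with 3 deposited files per group. Replicate 3 of each group was left out, because its median spot signals equalled those of replicate 1 at all 44397 spots. That leaves n = 2 arrays per group, and this number limits the precision of every value below.

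Apoptosis in these cells can start at mitochondria or at death receptors. At the mitochondrion, BAX and BAK1 open pores in the outer membrane; BCL-XL (Bcl2l1), MCL1 and A1 (the Bcl2a1 genes) hold them in check, and the BH3-only proteins BIM (Bcl2l11) and BID work against these brakes. At the receptors, the ubiquitin ligases cIAP1 (Birc2) and cIAP2 (Birc3) keep TNF receptor signalling on its survival branch, and c-FLIP (Cflar), a relative of caspase-8 without protease activity, limits the activation of caspase-8. NF-kappaB is known to induce several of these brakes, Bcl2a1, Birc3 and Cflar among them.

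Start-site windows are shown for the 2 genes with the largest changes below, Bcl2a1d and Cflar, and for Bcl2a1b, the copy without a probe of its own. Each runs 5′ to 3′ on the gene's strand from 250 bases before to 50 bases after the annotated start (RefSeq, GRCm38.p6), at chr9:88731801-88732100 on the minus strand for Bcl2a1d, chr9:89199023-89199322 on the plus strand for Bcl2a1b and chr1:58711241-58711540 on the plus strand for Cflar. Capitals mark a match to the AP-1 motif TGANTCA.
Bcl2a1d: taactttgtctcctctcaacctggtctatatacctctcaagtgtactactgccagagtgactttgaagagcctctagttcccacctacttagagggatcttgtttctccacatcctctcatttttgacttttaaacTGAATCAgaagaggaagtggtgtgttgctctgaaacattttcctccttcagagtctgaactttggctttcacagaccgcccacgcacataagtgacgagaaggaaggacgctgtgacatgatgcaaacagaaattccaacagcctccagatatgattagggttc
Bcl2a1b: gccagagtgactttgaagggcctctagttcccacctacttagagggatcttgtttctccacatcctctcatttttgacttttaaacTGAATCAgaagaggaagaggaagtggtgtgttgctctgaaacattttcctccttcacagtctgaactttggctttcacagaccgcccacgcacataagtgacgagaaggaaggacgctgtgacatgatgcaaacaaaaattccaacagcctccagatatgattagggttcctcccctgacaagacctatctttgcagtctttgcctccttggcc
Cflar: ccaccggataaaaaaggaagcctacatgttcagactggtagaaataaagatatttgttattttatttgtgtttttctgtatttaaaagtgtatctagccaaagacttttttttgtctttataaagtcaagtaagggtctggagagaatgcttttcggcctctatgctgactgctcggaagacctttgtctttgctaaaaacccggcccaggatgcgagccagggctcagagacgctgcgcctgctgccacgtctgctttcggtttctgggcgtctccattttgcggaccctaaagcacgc

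The windows of Bcl2a1d and Bcl2a1b are near copies of each other, shifted against their annotated starts. The shift is 50 bases up to the gap given next, and smaller after it. Aligned, they shared 247 of 250 bases (98.8%) with 1 gap of 6 bases. The same AP-1 match lies in both, 114 bases before the start of Bcl2a1d and 164 bases before that of Bcl2a1b. All 10 genes had a window, 14 windows in all, and 4 motifs were searched on both strands. AP-1 matched in no other gene of the set, against 7.81% of all 32851 windows. The NF-kappaB consensus matched 1 window, of Bcl2l1 (8.46% of all windows), the FOXO motif GTAAACA matched 1, of Bcl2l11 (3.65%), and the STAT motif TTCNNNGAA matched 0 (8.3%). A match describes these letters only.

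On the 4 arrays, 45% to 50.7% of probes were well above background, and the macrophage markers Csf1r, Adgre1, Itgam, Lyz2, Mertk and Fcgr3 were so on every array. Of the M2 markers, which were picked with earlier results known, Mrc1 and Clec10a were well above background on all 4 arrays, Chil3 on 1 of 2 WGP and 2 of 2 medium arrays, and Arg1 and Retnla on none. By the limma test described below, Mrc1 was 1.55-fold and Clec10a 16.3-fold lower with WGP (adjusted p = 0.0212 and 0.00246). Chil3 did not pass (adjusted p = 0.371). Markers of neutrophils, B cells, T cells, dendritic cells and fibroblasts (22 genes, 21 with a probe) were above background on all 4 arrays in 9 cases and on no array in 7. Those at background on all 4 arrays were Ms4a1, Cd3d, Cd3g, Flt3, Cd209a, Pdgfra and Retnlg, while Cd3e, Lck, Siglech, Zbtb46, Col1a1, Col1a2, S100a8, S100a9 and Elane were above it on all 4. In bulk RNA, a change in the share of cells and a change in RNA per cell cannot be told apart. The WGP arrays were dimmer, with 75th percentiles of 59.2 and 55.9, against 86.1 and 68.7 in medium, and the 7 spiked-in control RNAs above background had mean signals of 544 and 496, against 821 and 602. Signals are therefore set against each array's 75th percentile. A level below is log2 of that ratio, a change is WGP minus medium on that scale, and each adjusted p is from limma over the 18443 probes that were well above background on the 2 arrays of either group.

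Of the 8 genes with a tested probe, 5 rose with WGP (Bcl2a1d, Cflar, Bax, Birc3 and Mcl1), 0 fell, and 3 did not pass the test (Bid, Bcl2l11 and Bcl2l1). A gene was called by its brightest probe at an adjusted p under 0.05, by which 36.5% of all 10948 genes changed, 21.1% being higher and 15.4% lower. The median change over the 8 genes was 0.62, against 0.03 over all genes tested. The set and the wider lists below were chosen with earlier results of these data known. Their contrast with all genes is therefore descriptive and no independent support. Bcl2a1d and Cflar kept their calls in all 15 other settings of the processing, while Mcl1 lost its call in 9 of them. The 15 include an average of replicate 3 with replicate 1, which adds no independent array. The plot of probe levels shows every array.

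**Figure D1:**
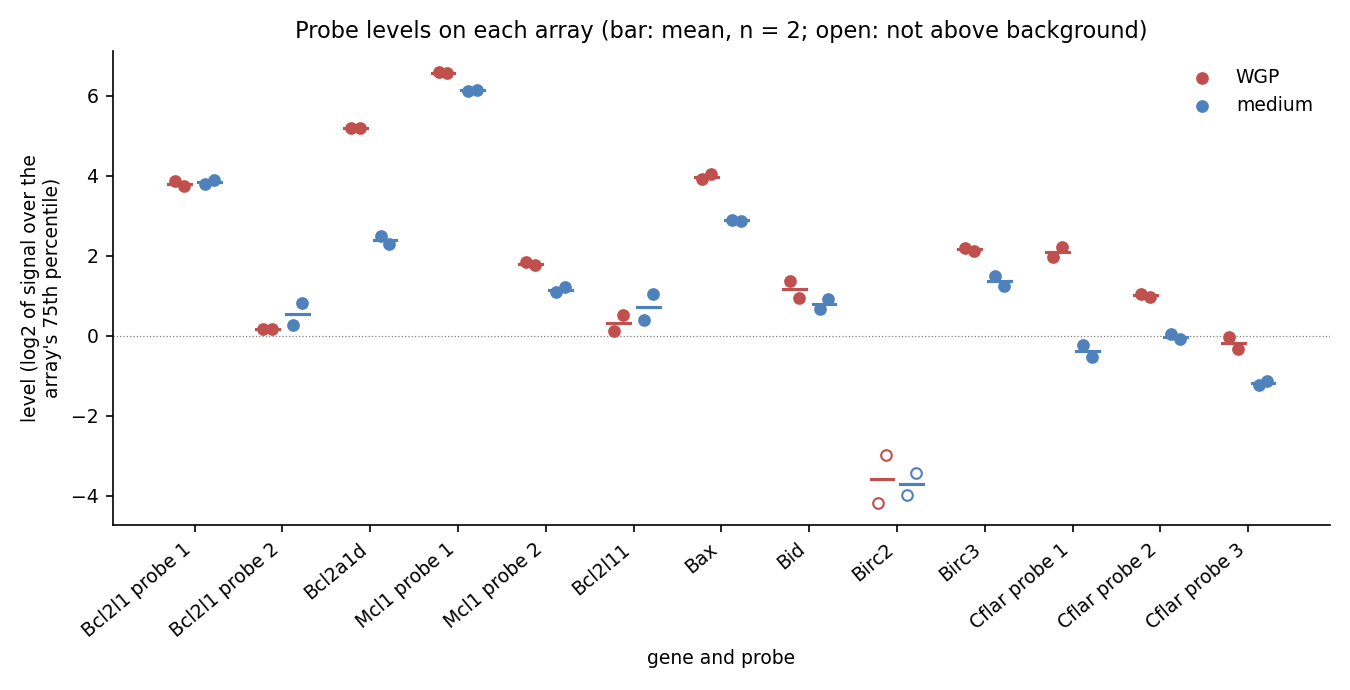
Level of each probe (log2 of the signal over the array's 75th percentile, y axis) for 9 genes and 13 probes (x axis), WGP in red left of medium in blue. Points are single arrays, bars are means of n = 2, and open points are not above background. Bcl2a1d stands at 5.18 on both WGP arrays and at 2.48 and 2.28 in medium, and Birc2 is below background on all 4 arrays. Heights of different probes are not comparable.

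Among the anti-apoptotic BCL2 proteins, Bcl2a1d changed most. Its probe read signals of 2140 and 2020 on the WGP arrays, against 482 and 333 on the medium arrays. Both WGP arrays thus lay far above both medium arrays before any scaling. Its level was 5.18 ± 0.00036 with WGP and 2.38 ± 0.15 in medium (SD, n = 2 each), 6.94-fold higher with WGP (log2 change 2.79 ± 0.12, SE, adjusted p = 0.00246). The rise was 2.69 on slide 1 and 2.90 on slide 2, and it ranked 116 of 10948 genes by rise, with 1.05% rising more. The mouse genome carries several near-identical Bcl2a1 copies, as the windows above show for 2 of them. The signal of this probe may include the other copies, whose share was not tested.

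Mcl1, a short-lived brake that macrophages hold at a high level, had 2 probes. The brighter read 5660 and 5300 with WGP, against 5970 and 4850 in medium, so that the unscaled signals overlapped. After scaling its level was 6.57 ± 0.0085 with WGP and 6.13 ± 0.018 in medium (SD, n = 2 each), a 1.36-fold rise (0.44 ± 0.099, SE, adjusted p = 0.0356). The dimmer probe rose 1.57-fold (0.65 ± 0.11, SE, adjusted p = 0.0198). Both probes moved the same way on both slides, by 0.46 and 0.43 for the brighter and by 0.75 and 0.55 for the dimmer. The call of the brighter probe was lost with the slide as a block (adjusted p = 0.068), with spike-in scaling (adjusted p = 0.0523), with quantile normalization (adjusted p = 0.0968), and without any one of the arrays (adjusted p = 0.0893 to 0.164, within 0.0218 to 0.946 over all 15 settings). It was also lost with no filter on dim probes and with no scaling (0.03). With normexp, a background correction that here also added 50 to every signal, the change was 0.28.

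Bcl2l1, which encodes BCL-XL, did not pass the test on either probe. The brighter read 866 and 740 with WGP, against 1200 and 1020 in medium, and its scaled levels overlapped, at 3.87 and 3.73 with WGP and 3.80 and 3.89 in medium. The change was -0.05 ± 0.11 (SE, adjusted p = 0.768), with a 95% interval of -0.36 to 0.27, and its sign turned under median scaling (0.11). A fold change above 1.2 or below 0.778 lies outside that interval, which is of the brighter probe only. The dimmer probe gave -0.38 ± 0.21 (SE, adjusted p = 0.238), with slide values of -0.12 and -0.64 and a 95% interval in fold change of 0.513 to 1.16. It was called lower with no scaling only (-0.80, adjusted p = 0.032). Bcl2 itself, from the wider list of anti-apoptotic members, gave -0.05 ± 0.18 (SE, adjusted p = 0.848), also with a sign that turned under median scaling (0.11), quantile normalization (0.06) and normexp (0.05). Of the 5 tested genes on that list, 2 rose (Bcl2a1d and Mcl1) and 0 fell, with a median change of 0.05.

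On the pro-apoptotic side, Bax, which forms the mitochondrial pore, rose 2.14-fold. Its signals were 893 and 921 with WGP, against 639 and 501 in medium, with both WGP arrays above both medium arrays. The level was 3.98 ± 0.09 with WGP and 2.88 ± 0.018 in medium (SD, n = 2 each), a change of 1.10 ± 0.11 (SE, adjusted p = 0.00684). It was 1.02 on slide 1 and 1.18 on slide 2. The call was lost with no filter on dim probes (adjusted p = 0.0587) and with no scaling (0.68, adjusted p = 0.0619), within 0.000797 to 0.0619 over 15 settings, but held without each array in turn. Bak1, the other pore-forming effector, gave 0.53 ± 0.17 (SE, adjusted p = 0.0851), and Bok was at background on all 4 arrays.

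The BH3-only genes of the set did not pass the test. Bcl2l11, the gene of BIM, read 63.7 and 79.9 with WGP, against 114 and 141 in medium, and after scaling the levels overlapped, at 0.11 and 0.52 with WGP and 0.40 and 1.04 in medium. The change was -0.41 ± 0.28 (SE, adjusted p = 0.312), with -0.30 on slide 1 and -0.52 on slide 2, and its 95% interval ran from -1.18 to 0.36. Bcl2l11 was called lower with no scaling only (-0.83, adjusted p = 0.0328). The change was -0.73 without medium replicate 1 and -0.09 without medium replicate 2. The arrays of each group lay far apart (SD 0.29 with WGP and 0.45 in medium), so a change of 1 on the log2 scale in the downward direction was not excluded by the interval.

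Bid, which caspase-8 cleaves to carry a death receptor signal to mitochondria, had levels of 1.37 and 0.95 with WGP, against 0.66 and 0.91 in medium. The groups did not overlap, but neither did those of 75% of all genes. The change was 0.38 ± 0.20 (SE, adjusted p = 0.208), of which 0.71 was seen on slide 1 and 0.04 on slide 2. On the wider BH3-only list, 8 genes besides Bcl2l11 and Bid had a probe and 6 were tested. Of these, 2 rose and 1 fell, with a median of 0.09.

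Bmf, a BH3-only protein tied to the cytoskeleton, was the one that fell. Its level was -0.05 ± 0.066 with WGP and 1.27 ± 0.28 in medium (SD, n = 2 each), 2.5-fold lower with WGP (-1.32 ± 0.17, SE, adjusted p = 0.0114). That call was lost without WGP replicate 2 and with no filter on dim probes (adjusted p of 0.00128 to 0.0668 over 15 settings), and with normexp the change was -0.73. The genes that rose, Bnip3l (0.65 ± 0.12, SE, adjusted p = 0.0226) and Bnip3 (0.57 ± 0.14, SE, adjusted p = 0.0408), are known mainly as receptors for the removal of mitochondria and as hypoxia targets. The other tested probes of Bnip3l rose by 0.89, 0.66 and 0.98 (adjusted p = 0.00956, 0.0177 and 0.00769), and that of Bnip3 by 1.01 (adjusted p = 0.0299). Other settings are given for the brightest probes only. Quantile normalization ended the calls of Bnip3l (adjusted p = 0.0565) and Bnip3 (adjusted p = 0.0846), and normexp that of Bnip3 (adjusted p = 0.0825). The call of Bnip3l was lost without any one of the arrays, and that of Bnip3 without any one but medium replicate 1, which kept it.

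**Figure D2:**
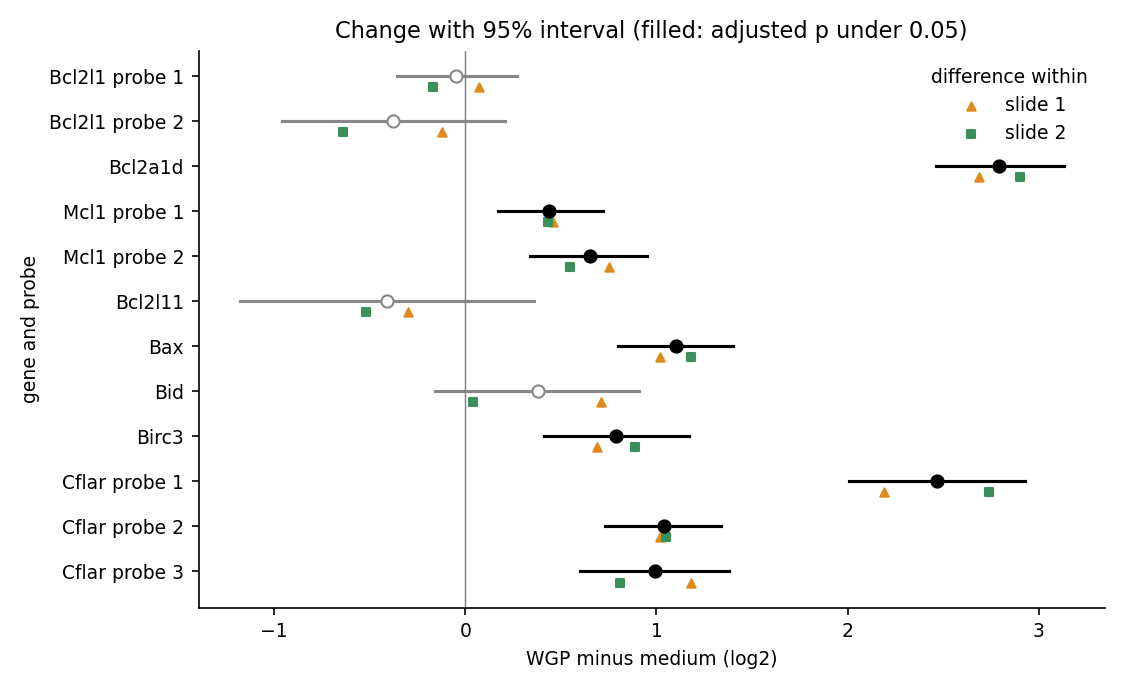
Change (WGP minus medium, log2, x axis) of the 12 tested probes (y axis) with the 95% interval of the fit as a line. Filled circles passed an adjusted p of 0.05, and triangles and squares give the differences within slide 1 and slide 2. Bcl2a1d (2.79) and Cflar probe 1 (2.47) lie farthest right, and the intervals of both Bcl2l1 probes, Bcl2l11 and Bid include 0.

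Of the inhibitors of apoptosis, Birc3 rose and Birc2 was not measurable. Birc3, the gene of cIAP2, had signals of 270 and 243 with WGP, against 243 and 161 in medium. The unscaled signals thus met at 243, and only the scaled levels were apart, at 2.15 ± 0.049 with WGP and 1.36 ± 0.19 in medium (SD, n = 2 each). The rise was 1.73-fold (0.79 ± 0.14, SE, adjusted p = 0.0206), with 0.69 on slide 1 and 0.89 on slide 2. Leaving out WGP replicate 1, WGP replicate 2 or medium replicate 2 ended that call (adjusted p = 0.0953, 0.084 and 0.0601, within 0.0098 to 0.315 over 15 settings). So did no filter on dim probes (adjusted p = 0.117) and no scaling (0.37, adjusted p = 0.315), and with normexp the rise was 0.46. Birc2, the gene of cIAP1 and the direct neighbour of Birc3 on chromosome 9, had a single probe with signals of 3.24 and 7.09 with WGP, against 5.48 and 6.33 in medium. None of these was well above background, so no change is given for it.

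Of 6 other genes of that family tested besides Birc3, 2 rose, 0 fell and 4 did not pass, with a median of 0.43. Xiap, the direct inhibitor of caspases, gave -0.12 ± 0.12 (SE, adjusted p = 0.483), with a sign that turned under median scaling (0.04). The ones that rose were Naip2, 2.97-fold (1.57 ± 0.11, SE, adjusted p = 0.00391), and Naip5, 1.69-fold (0.76 ± 0.11, SE, adjusted p = 0.0149). In mice these are sensors of bacterial proteins for the NLRC4 inflammasome, and they belong to a family of close copies that a probe may not separate. The call of Naip5 was lost without WGP replicate 1, WGP replicate 2 or medium replicate 2, with adjusted p of 0.00802 to 0.343 over 15 settings.

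Cflar, the gene of c-FLIP, rose on all 3 of its probes, but by unequal amounts. The brightest, annotated to transcript NM_009805, had signals of 231 and 260 with WGP, against 73.6 and 47.8 in medium. Both WGP arrays were above both medium arrays before any scaling. The level was 2.09 ± 0.18 with WGP and -0.37 ± 0.21 in medium (SD, n = 2 each), a 5.52-fold rise (2.47 ± 0.17, SE, adjusted p = 0.00392), with 2.19 on slide 1 and 2.74 on slide 2. In medium another Cflar probe stood higher (-0.03 against -0.37), so this probe was the brightest only with the WGP arrays included.

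The other probes, both annotated to transcript NM_207653, rose 2.05-fold (1.04 ± 0.11, SE, adjusted p = 0.00818) and 1.99-fold (0.99 ± 0.14, SE, adjusted p = 0.0138). Leaving out WGP replicate 1, medium replicate 1 or medium replicate 2 ended the call of the dimmest (adjusted p = 0.0605, 0.0577 and 0.0582, within 0.00741 to 0.111 over 14 settings). Set against the second probe within each array, the brightest stood 0.91 and 1.25 higher with WGP, and 0.26 and 0.43 lower in medium, a difference of 1.43 on the log2 scale between the groups. Against the third probe the difference was 1.47. An exact two-sided permutation test of each gave p = 0.333, the smallest that 2 against 2 arrays allow. With normexp background correction and its added 50, all 3 rises were smaller. They were 1.44 for the brightest probe and 0.50 and 0.47 for the others, and each kept its call. The probes' own sequences were not used here, so which parts of the transcripts they read is not given.

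Casp8, the protease that c-FLIP restrains and a near neighbour of Cflar on chromosome 1, did not pass the test. Its levels were 0.19 and -0.16 with WGP, against 0.43 and 0.47 in medium. The WGP arrays lay below the medium arrays by -0.44 ± 0.16 (SE, adjusted p = 0.101). It was called lower with normexp (-0.37, adjusted p = 0.0226) and with no scaling (-0.86, adjusted p = 0.0314), within adjusted p of 0.0226 to 0.346 over 15 settings. Within each array, the brightest Cflar probe minus Casp8 came to 1.78 and 2.38 with WGP, and -0.66 and -1.0 in medium, a difference of 2.90 between the groups (exact two-sided permutation p = 0.333, again the smallest possible). The other Cflar probes rose less (1.04 and 0.99) and were not set against Casp8. Fadd, the adaptor that joins caspase-8 to death receptors, gave 0.03 ± 0.15 (SE, adjusted p = 0.874), and the kinase gene Ripk1 gave -0.30 ± 0.14 (SE, adjusted p = 0.165), called lower with no scaling only (-0.72, adjusted p = 0.0444).

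Of the 13 genes of the death receptor list besides Cflar, all tested, 6 rose, 0 fell and 7 did not pass, with a median of 0.41, against 21.1% higher and 15.4% lower over all genes. Tnfaip3, the ubiquitin-editing enzyme A20, rose 6.78-fold (2.76 ± 0.12, SE, adjusted p = 0.00251), and with normexp the change was 1.66. Traf1, an adaptor that binds cIAPs, rose 3.96-fold (1.99 ± 0.099, SE, adjusted p = 0.00272), and the death receptor gene Fas rose 3.92-fold (1.97 ± 0.34, SE, adjusted p = 0.02). With normexp the change of Fas was 1.23. Leaving out either WGP array ended its call (adjusted p of 0.00194 to 0.0857 over 15 settings). Traf2, Mlkl and Tnfrsf10b also rose, with log2 changes of 1.16, 0.95 and 0.52 (adjusted p = 0.00545, 0.0155 and 0.0463). The call of Tnfrsf10b was lost without any one of the arrays and with the slide as a block, and that of Mlkl without WGP replicate 1 or WGP replicate 2.

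**Figure D3:**
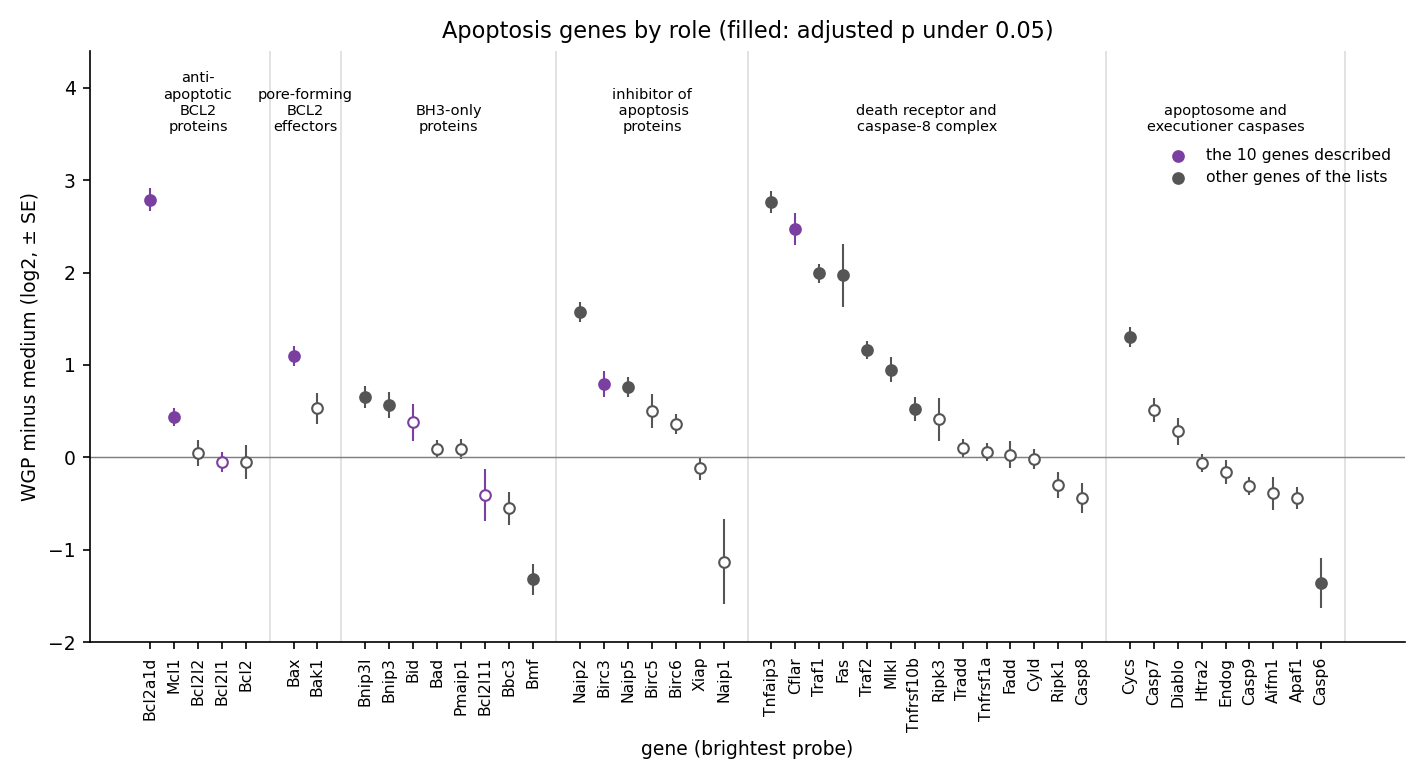
Change (WGP minus medium, log2, with SE, y axis) of the brightest tested probe of each gene (x axis), grouped into 6 lists by role. Purple points are genes of the set described here, grey points are the other genes of the lists, and filled points passed an adjusted p of 0.05. Tnfaip3 (2.76) and Cflar (2.47) lead the death receptor list, while Casp6 (-1.36) lies lowest in the apoptosome and executioner list.

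Downstream, at the apoptosome and the executioner caspases, 1 of 9 tested genes rose, 1 fell and 7 did not pass, with a median of -0.16. Cycs, the gene of cytochrome c, which carries electrons in respiration and triggers the apoptosome once it leaves mitochondria, rose 2.46-fold (1.30 ± 0.11, SE, adjusted p = 0.00575), and its second tested probe rose 2.41-fold. Casp6, an executioner caspase, was 2.57-fold lower with WGP (-1.36 ± 0.27, SE, adjusted p = 0.0267). Its signals were dim, at 17.7 and 16.5 with WGP and 51.4 and 67.1 in medium, and with normexp the change was -0.33. The call of Casp6 was lost without WGP replicate 1 or WGP replicate 2 and with normexp (adjusted p of 0.000567 to 0.131 over 15 settings). Over the 6 lists together, 37 genes outside the set of 10 were tested, of which 11 rose, 2 fell and 24 did not pass, with a median of 0.09. With no scaling between arrays 6 of them were called higher and 8 lower. The shares over all genes were 21.1% higher and 15.4% lower.

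The named genes whose levels over the 4 arrays, centred on their own mean, lay closest to those of Bcl2a1d were Sphk1, Rnf149 and Tgfbi. The Euclidean distances were 0.0791, 0.0973 and 0.104 on the log2 scale, over 4 arrays. Sphk1, the kinase that makes sphingosine 1-phosphate, rose 6.89-fold (2.79 ± 0.14, SE, adjusted p = 0.00272), Rnf149 rose 6.97-fold (2.80 ± 0.12, SE, adjusted p = 0.00239) and Tgfbi rose 6.69-fold (2.74 ± 0.15, SE, adjusted p = 0.00298). With normexp the changes were 1.29 for Sphk1, 2.57 for Rnf149 and 2.44 for Tgfbi, against 2.41 for Bcl2a1d.

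Several measurements bear on all of these values. WGP always sat at position 3 of a slide and medium at position 1, so position and treatment cannot be told apart. Over all probes tested, 34.3% changed, 18.9% being higher and 15.4% lower (55.2% of calls higher). The median change of all probes was -0.0136. With median scaling it was 0.149, and 71.4% of calls were higher, while with no scaling it was -0.433, and 16.8% were higher. With spike-in scaling these values were 0.00483 and 58.5%. Of 6 macrophage markers tested, 3 (Mertk, Fcgr3 and Lyz2) fell and 0 rose, and the summed signal of the list was 1887 and 1632 times the 75th percentile with WGP, against 1457 and 1413 in medium. Csf1r, whose brightest probe gave most of that sum, had a change of 0.47 (adjusted p = 0.0687). Of the other cell types, Cd79a, Cd79b and Col3a1 fell and Siglech rose. Of the 2 WGP arrays, Cd79b and Col3a1 were above background on 0 and Cd79a on 1. The summed signals were 202 and 215 times the 75th percentile with WGP for dendritic cell markers, against 120 and 80.2 in medium, and 0.199 and 0.247 for B cell markers, against 0.898 and 0.704. The dendritic cell sum came almost wholly from 1 Siglech probe (levels 7.65 and 7.75 with WGP, 6.90 and 6.32 in medium). The other Siglech probe was above background on 0 WGP arrays and 1 medium array and was not tested. For neutrophil, T cell and fibroblast markers the groups overlapped. The part of these in the results was not tested.

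**Figure D4:**
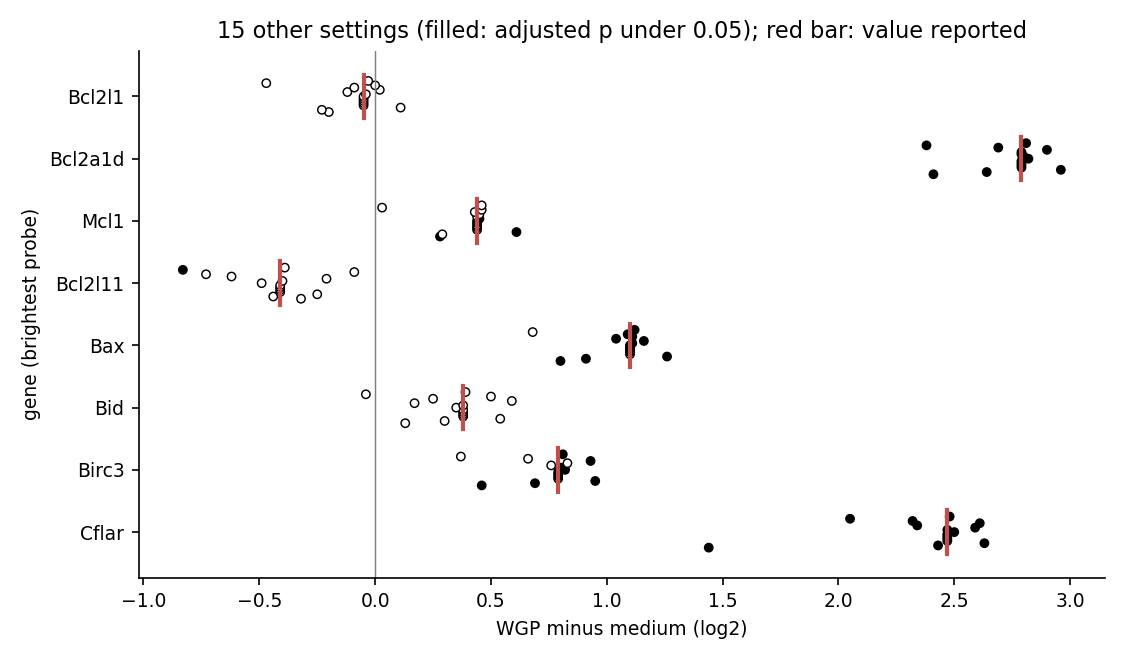
Change (WGP minus medium, log2, x axis) of the brightest probe of the 8 tested genes (y axis) under 15 other processing settings. Each point is a setting, filled where the adjusted p was under 0.05, and the red bar is the value reported. All points of Bcl2a1d (2.38 to 2.96) and Cflar (1.44 to 2.63) are filled, whereas those of Mcl1 run from 0.03 to 0.61 with 9 open.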

How the data were processed

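Per the submitters' processing notes, arrays were read with Agilent Feature Extraction 10.7.3. Per the file headers, the deposited processed signal is a background-subtracted, detrended spot intensity, not normalized between arrays. Median spot signals, backgrounds and flags were also deposited, and so was a table of log2 values, used only as an alternative because its baseline is not given in the sources used here.

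Replicates 1 and 2 of each group were used, as the gene rule states. The processed signal of medium replicate 3 was within 0.695% of the mean of replicates 1 and 2, while WGP replicate 3 equalled 1.3 times replicate 1 within 0.488%. Control spots (1377) and outlier spots (118 to 183 per array) were dropped, and log2 values minus the array's 75th percentile were averaged per probe. RefSeq accessions (GRCm38.p6 table) named 67.87% of probes. The array design uses an older build, so its coordinates are not given. Of the probes kept, 16 with missing values were dropped. The test was limma (version 3.58.1, under R 4.3.3; lmFit, eBayes, 2 residual and 2.12 prior degrees of freedom) with Benjamini-Hochberg adjustment. On simulated data with 200 changed of 18443 probes it recovered 0% of changes of 0.5 or 1 and 45.5% of changes of 2 on the log2 scale, with 2 unchanged probes among 32 calls. The cutoff depends on the share of changed probes, which was far higher in the data.

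Replicate numbers 1 and 2 were also slides, per the file headers, and deviations from group means correlated at 0.15 within a slide. The value across slides, -0.15, is the same number with its sign turned. With 2 arrays per group the deviations mirror each other, so it adds no information. The pairing comes from the headers. The members, the gene lists and the rule for named genes were chosen with earlier results of these data known. That rule took all 10 members, the up to 3 largest rises and falls per list, Casp8, Fadd, Ripk1, Bak1, Bcl2, Xiap and Tnfaip3, and the 3 genes nearest in pattern to the member with the largest change. Of the lists, 1 pathway gene and 1 marker are not reported here and enter no count over lists. M2 and marker genes, and calls counted in full, were named besides. Alternatives changed the background correction, scaling, filter, probe choice, block and arrays used. Normexp used the median spot signal in place of the planned mean signal, and 50 was added to each corrected signal. That constant is near the arrays' 75th percentiles of processed signal (55.9 to 86.1), so log2 changes of dim probes come out smaller with it.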

Additional observations from a re-analysis of the deposited data

How the results depend on the processing

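Of 15 other settings, spike-in scaling and no scaling were added after seeing the data. Another setting averaged replicate 3 with replicate 1. It adds no independent array and draws medium replicate 1 towards medium replicate 2, so its 7842 changed probes are no separate support. It gave the lowest adjusted p in the ranges above for Mcl1 (0.0218) and Naip5 (0.00802). The direction of the 5 changed members was the same in all 15. Changed probes numbered 6319, but 1205 with no filter on dim probes, where 39394 probes were tested, and 2177 to 4036 without single arrays, the lone array of a group being assumed to vary like the other group. Changed members numbered 5, but 2 with no filter, 3 with no scaling (1 of them Bcl2l11, lower) and 3 to 4 without single arrays. The other changed apoptosis genes numbered 13 (11 higher, 2 lower), but 4 with no filter and 6 to 12 without single arrays, and with no scaling 14 (6 higher, 8 lower). No filter ended every call among both sets except Bcl2a1d, Cflar, Tnfaip3, Traf1, Naip2 and Cycs, and no scaling ended those of Bax, Birc3, Mcl1, Bnip3, Bnip3l, Mlkl, Naip5 and Tnfrsf10b. With the replicate block (slide), 5367 probes, 4 members and 11 other genes changed. The block ended the calls of Mcl1, Bnip3 and Tnfrsf10b and of no other called gene; Bcl2a1d, Cflar, Bax and Birc3 had adjusted p of 0.0107, 0.0137, 0.019 and 0.0311. Signs turned only for changes that had not passed the test: Bcl2l1 (0.11 with median scaling, 0.02 without WGP replicate 2), Bcl2 (0.05 with normexp, 0.06 with quantile normalization, 0.11 with median scaling, 0.02 without WGP replicate 2, and -0.25 to 0.16 over the single arrays left out), Xiap (0.04 with median scaling), Fadd (-0.39 with no scaling, and -0.12 to 0.18 over the single arrays left out) and Bid (-0.04 with no scaling). The cause of these shifts was not tested. Over single genes and probes, 387 of 461 comparisons kept direction and side of the threshold, 58 lost the call and 5 gained one. Signal over background limits what can be said of Birc2.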
